A study of Caenorhabditis elegans with 2 samples.

Results

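The genes described here are 8 components of the microRNA pathway of Caenorhabditis elegans, namely drsh-1, pash-1, dcr-1, alg-1, alg-2, ain-1, ain-2 and nhl-2. They were chosen by name, for their place in the pathway, from 19973 protein-coding genes, and all 8 were found in the annotation. Chromatin immunoprecipitation and sequencing (ChIP-seq) of C34F6.9, tagged with eGFP, was done on whole second-stage (L2) larvae. The larvae, of pooled sex, came from strain OP324, genotype unc-119(ed3) III; wgIs324. An inserted transgene (wgIs324) carries the tagged gene, and the animals carry the unc-119(ed3) allele. Whether unc-119 function is restored in them cannot be told from the genotype alone. The only group is this immunoprecipitation, with 2 biological replicates per the labels, and no second condition was compared. Whole animals were used, so the tissue in which a peak arises is not known.

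The authors deposited 30000 peaks with background regions for each replicate and for the pool of both, and an optimal list of 5692 of the pooled peaks, selected by irreproducible discovery rate. These were also the 5692 pooled peaks of highest signal, so a rank in the optimal list is also the rank in the pooled list. The lists give a signal and a summit (the position of highest enrichment) for each peak and no read counts, so the depth is unknown. The signal is the authors' own value and has no scale shared between lists, so ranks within a list are compared, with rank 1 for the highest signal. A region absent from the pooled list had a signal below its lowest value of 13.4, or was not called, which is not the same as no binding. No pooled summit lay from 2000 bp upstream of C34F6.9 to its end.

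MicroRNAs are short RNAs that guide silencing of messenger RNAs. Their primary transcripts are cut in the nucleus by the RNase III enzyme Drosha (drsh-1) together with the RNA-binding protein Pasha (pash-1), and Dicer (dcr-1) then cuts the hairpin to the mature length. The Argonautes ALG-1 and ALG-2 hold the mature microRNA, the GW182-like proteins AIN-1 and AIN-2 link them to translational repression and decay of the target, and NHL-2 is a TRIM-NHL cofactor of the silencing complex. In larvae of this animal, the pathway times cell fates through lin-4 and the let-7 family.

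The sequences below are the 300 bases around the strongest summits of nhl-2, ain-1 and alg-2, shown because their peaks lie away from, or inside, the gene they are listed for and their windows overlap no untranslated region. All are the plus strand of WBcel235 (ce11) from RefSeq, and capitals mark GAGAGA on either strand. The nhl-2 window is chrIII:4899789-4900088, the ain-1 window chrX:16612312-16612611 and the alg-2 window chrII:873436-873735, which holds no copy.
nhl-2: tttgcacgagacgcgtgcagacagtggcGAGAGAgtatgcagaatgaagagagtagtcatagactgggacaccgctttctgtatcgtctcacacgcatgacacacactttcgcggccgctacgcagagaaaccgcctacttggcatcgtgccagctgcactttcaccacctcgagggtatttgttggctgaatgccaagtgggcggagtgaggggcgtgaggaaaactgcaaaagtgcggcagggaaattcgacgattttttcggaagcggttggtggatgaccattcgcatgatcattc
ain-1: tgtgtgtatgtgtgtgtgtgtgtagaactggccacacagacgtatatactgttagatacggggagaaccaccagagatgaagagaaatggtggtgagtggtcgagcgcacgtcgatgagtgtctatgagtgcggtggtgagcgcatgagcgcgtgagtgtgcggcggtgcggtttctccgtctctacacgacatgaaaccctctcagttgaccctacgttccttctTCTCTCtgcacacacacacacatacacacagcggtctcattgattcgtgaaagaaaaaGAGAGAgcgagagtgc
alg-2: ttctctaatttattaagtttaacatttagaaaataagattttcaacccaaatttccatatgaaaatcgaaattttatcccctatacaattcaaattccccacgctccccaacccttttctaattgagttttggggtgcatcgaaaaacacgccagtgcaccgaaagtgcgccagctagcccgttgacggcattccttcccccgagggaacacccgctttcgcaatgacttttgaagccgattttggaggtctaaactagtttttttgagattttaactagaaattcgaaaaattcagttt

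Most of these genes had a peak in the gene or upstream of it, and fewer had one near an annotated 5′ end. The optimal list had a summit between 2000 bp upstream and the gene end for 6 of 8 genes (75%), against 27.4% of all protein-coding genes. Within 500 bp of an annotated 5′ end the count was 3 of 8 (37.5%), against 17.0% of all. A lower count there is not particular to these genes. Of all coding genes, 5474 had a summit in the wider region and 3400 within 500 bp. Only dcr-1 and drsh-1 had no optimal summit in the wider region. The strongest peaks of nhl-2 and ain-1 were 854 and 989 bp upstream. In all, 3 of 8 genes (nhl-2, ain-1 and ain-2) had a summit more than 500 and up to 2000 bp upstream with none within 500 bp, against 8.46% of all genes. For ain-2 this summit is not its strongest, which lay in an intron, and it is nearer to ptps-1 and B0041.5 than to ain-2. The nhl-2 summit is nearer to tag-340 (569 bp) than to nhl-2. The genes are long, with a median of 6680 bp against 2027 bp for all coding genes, and a longer gene has more room for a summit. Among the 3997 coding genes within their range of length, 37.4% had a summit in the wider region and 22.6% within 500 bp. The 8 genes have a median of 2 annotated 5′ ends against 1 for all coding genes. The genes were listed with earlier results of these data known, so no test of the list was made.

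The count turned on the distance allowed. It was 1 of 8 within 250 bp (pash-1), against 11.7% of all genes, and 6 of 8 within 1000 bp, against 21.6%, which adds nhl-2, ain-1 and ain-2. With each summit given only to its nearest coding 5′ end it was 3 of 8, against 13.8%. The 2846 optimal peaks of highest signal gave 2 of 8, against 11.1%, and all pooled regions 4 of 8, against 36.9%. The 5692 highest peaks of replicate 1 alone gave 3 of 8, against 17.1%, and those of replicate 2 alone gave 4 of 8, against 16.7%, with dcr-1 added.

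In the wider region, 500 bp instead of 2000 bp upstream gave 4 of 8, against 19.5%, and 5000 bp gave 7 of 8, against 36.7%, with drsh-1 added. The 2846 optimal peaks of highest signal gave 5 of 8, against 17.7%, and all pooled regions 6 of 8, against 56.1%. The highest peaks of replicate 1 gave the same 6 genes as the optimal list, against 27.2%, and those of replicate 2 gave 7, against 26.8%, again with dcr-1. In the full replicate lists, which include background regions, 6 of 8 genes had a summit in replicate 1, against 56.8% of all genes, and 8 of 8 in replicate 2, against 61.3%.

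**Figure D1:**
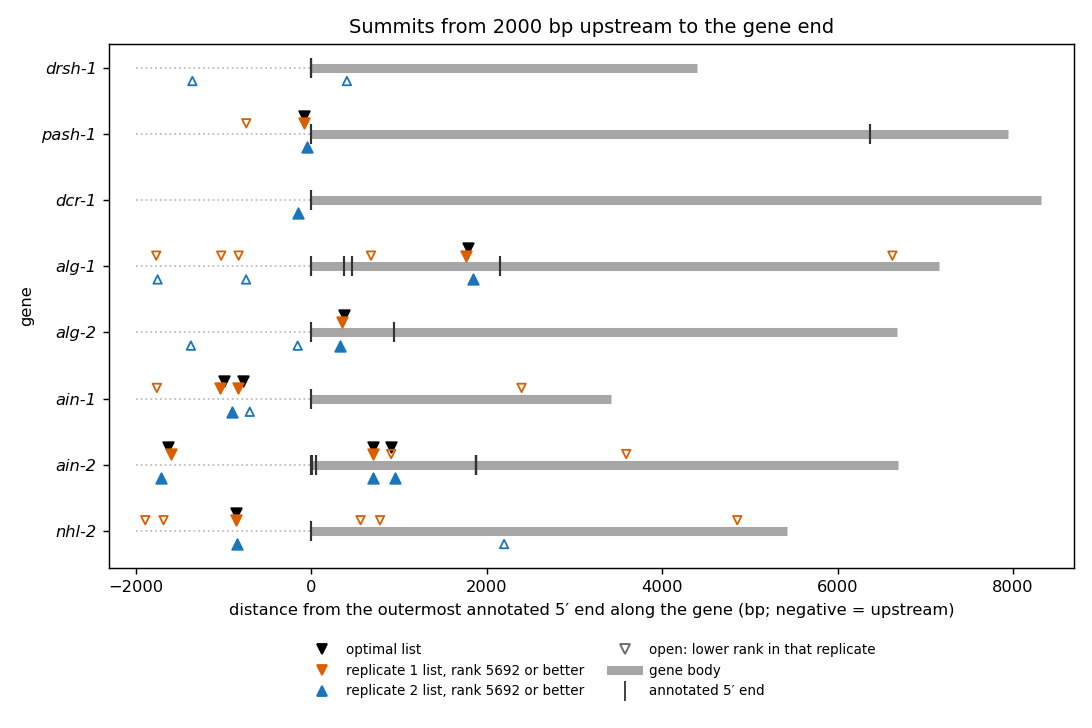
Positions of summits along each gene, in bp from its outermost annotated 5′ end, for the optimal list (black), replicate 1 (orange) and replicate 2 (blue), where filled marks have rank 5692 or better and open marks a lower rank. The optimal summits of nhl-2 and ain-1 stand upstream of the gene, those of alg-1 and alg-2 inside it, and dcr-1 and drsh-1 have marks from replicate 2 alone.

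In the nucleus, the step of Drosha and Pasha, the 2 partner genes differed. The gene pash-1 (WBGene00011908, chromosome I, 10598673 to 10606621, plus strand) had the strongest peak within 500 bp of a 5′ end among the 8 genes. Its summit at position 10598595 lay 78 bp upstream, in the 183 bp between pash-1 and the end of T22A3.6, the coding gene before it on the same strand. The peak had signal 280.65 and rank 622 in the optimal list. It ranked 488 in replicate 1 and 957 in replicate 2, with summits 4 and 28 bp from the optimal one. No other gene had a 5′ end within 500 bp of the summit.

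For drsh-1 (WBGene00009163, chromosome I, 9781324 to 9785724, minus strand) neither the optimal nor the pooled list had a summit in the region. Replicate 1 had none, and replicate 2 had 2, ranked 20364 and 21124 of 30000. The gene starts 56 bp after the alpha-tubulin gene tba-1 on the same strand. The nearest optimal summit, at 9787750, was 126 bp upstream of a 5′ end of tba-1 and 2026 bp upstream of drsh-1, 26 bp beyond the region examined. That peak had rank 2577, with rank 2722 in replicate 1 and 2152 in replicate 2. Close tandem genes in this animal are often transcribed together, but the files hold no operon annotation, and whether the tba-1 peak bears on drsh-1 was not tested.

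For the Dicer gene dcr-1 (WBGene00000939, chromosome III, 8071967 to 8080281, minus strand) the replicates differed. It is divergent from apc-2, a subunit gene of the anaphase-promoting complex, with 347 bp between the genes. Replicate 2 had a summit there, at 8080436, 155 bp upstream of dcr-1, with signal 26.95 and rank 5302. Replicate 1 and the pool had none in the region, although each list reaches down to rank 30000. A replicate 2 peak of this kind was uncommon: of its 5692 highest, 78 (1.37%) had no pooled summit within 500 bp. The nearest optimal summit upstream of dcr-1 was 5247 bp away, 53 bp upstream of K06H7.7, at rank 959.

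By their strongest peak, the Argonaute genes ranked lowest of the 6 genes with one, and both of their peaks lay inside the gene. The alg-2 summit (WBGene00000106, chromosome II, 873212 to 879885, plus strand) was at 873586, in an intron 374 bp after the first 5′ end. It had signal 115.95 and rank 2762, with rank 3286 in replicate 1 and 2463 in replicate 2. The non-coding RNA gene T07D3.12 starts 66 bp further along on the same strand, so the summit is inside alg-2 and upstream of T07D3.12. The alg-1 summit (WBGene00000105, chromosome X, 13949110 to 13956261, plus strand) was at 13950895, which is 1785 bp after the outermost of its 4 annotated 5′ ends and 367 bp before the innermost. It overlaps a 5′ untranslated exon of 1 transcript and introns of 2. Its signal was 75.21 and its rank 4364, with 4360 in replicate 1 and 4896 in replicate 2. In and upstream of alg-1 the pooled list held 3 further summits, all outside the optimal list, at ranks 11019, 12278 and 20502.

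Of the GW182-like genes, ain-1 (WBGene00015547, chromosome X, 16613451 to 16616871, plus strand) had one of the highest peaks. Overlapping peaks had summits at 16612462 and 16612673, which are 989 and 778 bp upstream of its single 5′ end, in the 3926 bp that separate it from the divergent gene F59C12.3. The first had signal 408.40 and rank 234, with rank 399 in replicate 1 and 73 in replicate 2. The second had signal 179.54 and rank 1514, with rank 1779 in replicate 1 and 6249 in replicate 2. Replicate 1 placed its summits 45 and 54 bp from the optimal ones, while the higher summit of replicate 2 was 89 bp from the first, toward the second. The first summit stood at percentile 98.7 of replicate 1 and 99.8 of replicate 2, and the second at 94.1 and 79.2. No gene had a 5′ end within 500 bp of either summit.

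The second gene of this kind, ain-2 (WBGene00015007, chromosome I, 4653467 to 4660153, plus strand), had 3 optimal summits. The strongest, at 4654168, was in an intron 641 bp from the nearest 5′ end, with signal 200.56 and rank 1240. Its rank was 1109 in replicate 1 and 1617 in replicate 2, with summits 8 and 2 bp away. A weaker summit followed at 846 bp (rank 5187, with 7556 in replicate 1 and 5598 in replicate 2). The third was 1632 bp upstream (rank 4417, with 3595 in replicate 1 and 3670 in replicate 2), beyond the divergent gene ptps-1, and lies 1062 bp from a 5′ end of ptps-1 and 1058 bp from that of B0041.5. It is nearer to either of those genes than to ain-2.

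The strongest peak of all 8 genes was the one upstream of nhl-2 (WBGene00003598, chromosome III, 4893658 to 4899085, minus strand). It spans chrIII:4899696-4900140 with the summit at 4899939, signal 675.07 and rank 39. It ranked 44 in replicate 1 and 35 in replicate 2, with summits 1 and 7 bp away. The peak lies in the 1422 bp between nhl-2 and the divergent gene tag-340, 854 bp upstream of nhl-2 and 569 bp upstream of tag-340. Its summit falls inside F26F4.14, a non-coding RNA gene on the same strand as nhl-2, 11 bp after its 5′ end. Of all optimal summits, 413 (7.26%) fall inside such a gene. The data do not tell which of the 3 genes the peak belongs to. The region held 3 weaker pooled summits, at ranks 21694 to 24930.

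All 9 optimal summits at these genes had a match within 100 bp in both replicates, against 94.4% of all optimal summits. Their ranks differed between replicates by a median factor of 1.35, against 1.39 for all matched optimal summits, and their replicate summits lay a median of 38 bp apart, against 24 bp. The optimal list derives from both replicates, so these matches are not independent of it. With all optimal peaks ordered by signal, nhl-2 stood at percentile 99.3, ain-1 at 95.9, pash-1 at 89.1, ain-2 at 78.2, alg-2 at 51.5 and alg-1 at 23.3. The order of nhl-2, ain-1, pash-1, ain-2, alg-2 and alg-1 was the same in each replicate alone.

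**Figure D2:**
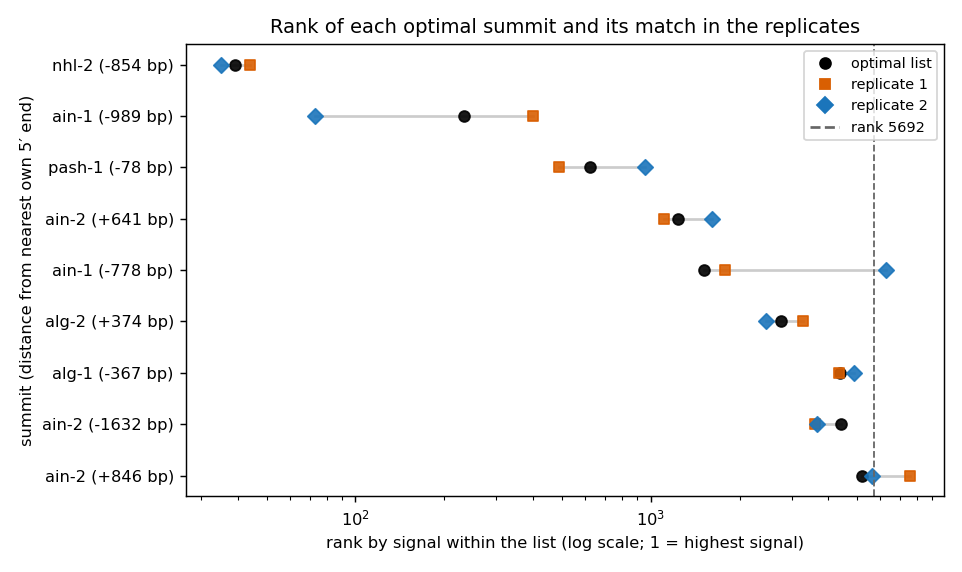
Rank by signal (log scale, 1 is the highest) of the 9 optimal summits and of their matched summits in replicate 1 and replicate 2, with the dashed line at rank 5692. The nhl-2 marks lie between 35 and 44, while the second ain-1 summit spans 1514 to 6249.

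The coding genes whose promoter peaks ranked most like that of pash-1 were edc-4, melo-1 and pas-4. Likeness was the sum of the differences in rank over the 2 replicate lists, which is a thin basis. The sum was 50 for edc-4 (530 in replicate 1 and 949 in replicate 2), an enhancer-of-decapping gene, 51 for melo-1 (466 and 928) and 57 for pas-4 (459 and 929), a proteasome subunit gene.

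The strongest summits of the 6 genes spread widely in G and C, with nhl-2 highest and pash-1 lowest. Those of 4 of 6 genes lay above the median optimal summit, a count near the even split that a median makes. In the 300 bases around the strongest summit, G and C made up 53.3% at nhl-2, 51.7% at ain-1, 52% at alg-1, 48% at ain-2, 39% at alg-2 and 29% at pash-1. The median over all optimal summits was 39.3%, and over the pooled regions outside the optimal list 33.7%. The nhl-2, alg-1 and ain-1 windows were thus above 97.2%, 95.7% and 95.4% of optimal windows, and the pash-1 window above 3.27%. Every stretch of 36 bases in the 9 windows occurred once in the 6 nuclear chromosomes, so these windows hold no exact repeat of that length.

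Of 6 short motifs searched on both strands of these windows, GAGAGA was in more windows than any other. It was found at the strongest summit of 5 of 6 genes, all but alg-2, and in 7 of 9 windows, some of which overlap. Among all optimal windows 51.5% held it, against 23.4% of pooled regions outside the optimal list. At ain-1 the copies marked above start 76 and 134 bases after the summit, and at nhl-2 the single copy starts 122 bases before it. TATAAA was present at pash-1 alone, in 2 overlapping copies that start 56 and 60 bases after the summit, and in 24.8% of optimal windows. A run of 8 T or A was found in 2 windows, both at ain-2, and in 27.1% of optimal windows. None of the 9 windows held GGCGGG, the core of an E2F site, which is in 10% of optimal windows. None held the E-box CACGTG either, found in 9.54%, nor TTTCAG, found in 30%. A match says only that the letters are there.

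**Figure D3:**
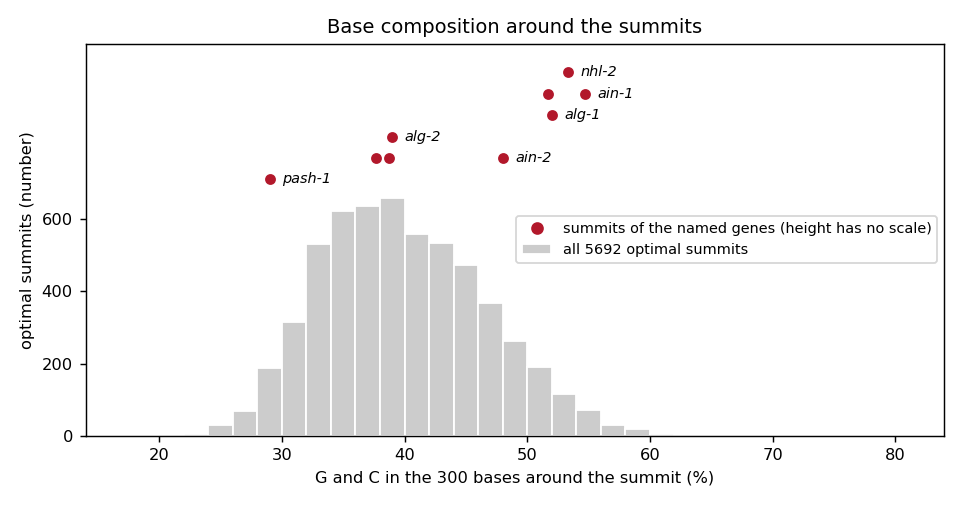
Share of G and C in the 300 bases around a summit (x axis, in percent) for all 5692 optimal summits (grey bars, number per step of 2) and for the 9 summits of the named genes (red points, whose height has no scale). The nhl-2, ain-1 and alg-1 points lie above 51%, while pash-1 lies at 29%.

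Other genes of small-RNA silencing were counted in 4 further lists with the same 500 bp rule, for which 17.0% of all coding genes are called. Genes for deadenylation and decapping, which carry out decay of silenced messages, had a peak in 16 of 21 cases (76.2%). The CCR4-NOT subunit genes ntl-11 and ntl-2 led, at ranks 73 and 212 (76 and 189 in replicate 1, 61 and 248 in replicate 2), followed by edc-4 at rank 654. Of the Dicer partners, proteins that work with Dicer mostly in RNA interference, 4 of 8 had a peak (50%). These were the RNA-dependent RNA polymerase gene rrf-3 (rank 441), the double-stranded RNA-binding protein gene rde-4 (rank 545), the RNA phosphatase gene pir-1 (rank 2701) and the helicase gene drh-1 (rank 2849). MicroRNA cofactors and turnover genes had 7 of 16 (43.8%), led by vig-1 (rank 273), lin-28 (rank 308), which encodes a let-7-binding protein, and hrpk-1 (rank 605).

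The other Argonautes, most of which serve germline, small interfering or piRNA pathways, had a peak in 1 of 16 cases (6.25%). This was rde-1 at rank 3745 (3973 in replicate 1 and 6913 in replicate 2). With the wider region, for which 27.4% of all coding genes are called, they had 2 of 16 (12.5%). The decay genes then had 19 of 21 (90.5%), the Dicer partners 5 of 8 (62.5%) and the cofactors 11 of 16 (68.8%). Neighbouring genes can share a promoter, and which gene of a pair a peak belongs to was not tested. Whether these lists differ from each other was not tested either.

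**Figure D4:**
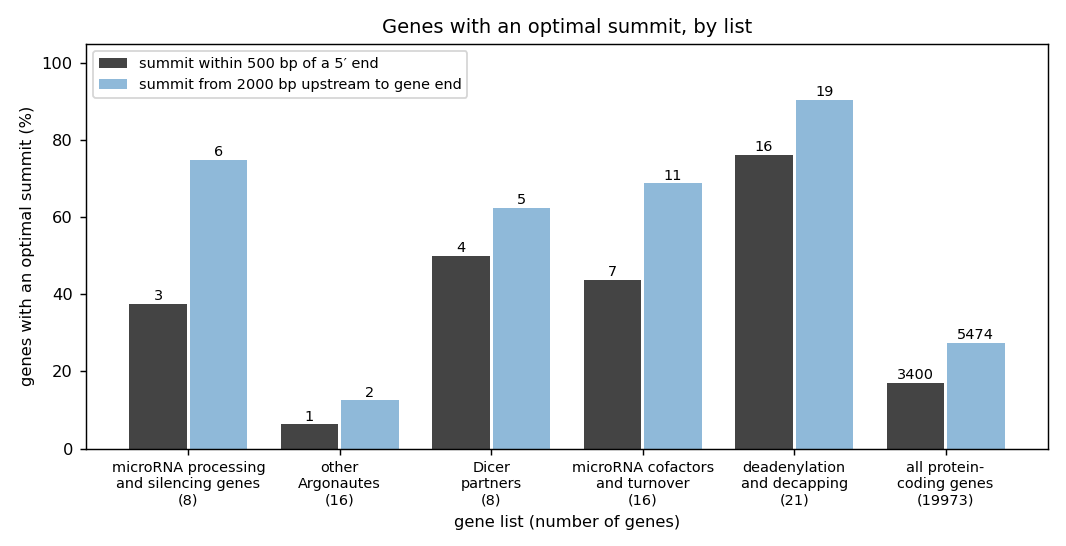
Percent of genes with a summit of the optimal list at most 500 bp from a 5′ end (dark bars) and from 2000 bp upstream to the gene end (light bars), for the 8 genes, 4 further lists and all coding genes, with the number of genes on each bar. The 8 genes show 37.5% and 75%, the decay genes 76.2% and 90.5%, the other Argonautes 6.25% and 12.5%, and all coding genes 17.0% and 27.4%.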

How the data were processed

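The authors deposited peak lists in narrowPeak format, per the deposited listing of the files. Each replicate was called against a control library, the replicates were also pooled and called, and IDR thresholding of these lists gave the optimal one. The caller and aligner were not given in the sources used here, and the control library was not analysed here. The deposited signal is per peak and relative to a control. The deposited −log10 q-value was 4.07 for every optimal peak, so it gave no ranking. No interval was shared exactly between the replicate lists.

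Summits were placed by the deposited offset from the peak start, 1-based on ce11, and compared with Ensembl release 115 (WBcel235) protein-coding transcripts. A gene was called within 500 bp of a 5′ end of any of its transcripts. The members and lists were chosen with earlier results of these data known, so no test was made. The genes named were the 8 members, their neighbours at each summit, up to 3 genes of each further list by signal, C34F6.9 and the 3 genes of most similar rank. Beyond this rule, drh-1, K06H7.7, tba-1 and apc-2 were named after the values were seen. Alternatives were other windows, peak sets and match distances and each replicate alone. The assignment of summits was tested on simulated data. Python 3.11.15, numpy 2.4.6, pandas 2.3.3 and matplotlib 3.10.9 were used.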

Additional observations from a re-analysis of the deposited data

How the results depend on the processing

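The count of genes with a summit near a 5′ end depends on the window. It was 3 of 8 within 500 bp (against 17.0% of all coding genes), 1 within 250 bp (pash-1 alone, against 11.7%) and 6 within 1000 bp (against 21.6%), where nhl-2, ain-1 and ain-2 are added. The other alternatives gave 2 to 4, against 11.1% to 36.9%. The call for dcr-1 rests on 1 library, since it had a summit in replicate 2 alone, with 4 of 8 genes called there and 3 of 8 in replicate 1 alone. Over the wider region the count was 6 of 8, against 27.4% of all coding genes. The alternatives gave 4 to 7 of 8, against 17.7% to 56.1%, and 6 of 8 with all pooled regions stands against that 56.1%. Of the 61 genes of the further lists 28 were called, against 17.0% of all coding genes. The alternatives gave 20 of 61 (within 250 bp, against 11.7%) to 35 of 61 (all pooled regions, against 36.9%). The strongest summits of 6 genes matched in both replicates within 100 or 200 bp, and those of 4 genes within 50 bp. A match in both replicates could not be computed without one of them. The lists hold no counts, so depth cannot be weighed. No paired analysis was possible because there was 1 group.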
